A study of Arabidopsis thaliana with 8 samples.

Results

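The Aux/IAA and auxin response factor (ARF) genes of Arabidopsis thaliana were followed in endosperm, the nourishing tissue of the seed. The members are 43 genes named by locus, 29 Aux/IAA and 14 ARF, out of 34133 genes in the table, with ARF2 not among them. Endosperm was cut out of seeds by laser capture at 6 days after pollination from 4 crosses of 2 libraries each. Col-0 x Col-0, with only wild-type parents, is called the wild-type cross. Col-0 x ein2-5 is called the paternal-mutant cross, ein2-5 x Col-0 the maternal-mutant cross and ein2-5 x ein2-5 the double-mutant cross, and values below follow that order. These names assume that a cross is written with its mother first, which the labels do not state. The ein2-5 allele disables EIN2, the membrane protein through which the ethylene signal passes. No label says that the libraries of a cross came from separate plants, so the spread behind each p-value may be technical.

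Auxin acts by removing repressors. Aux/IAA proteins bind ARF transcription factors at auxin-responsive genes and hold them off with TOPLESS co-repressors, and auxin glues an Aux/IAA protein to a receptor of the TIR1/AFB family, which marks it for destruction. ARF5, ARF6, ARF7, ARF8 and ARF19 are classed as activators, and the other members of the family mainly as repressors. In seeds, auxin made in the endosperm after fertilization is known for driving endosperm growth and for holding back its cellularization, the walling-off of the free nuclei.

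The receptor holds an Aux/IAA protein by a short stretch, the degron, whose core reads glycine, tryptophan, proline, proline. In the longest RefSeq coding model of each gene (TAIR10.1 annotation), 23 of the 29 Aux/IAA genes encoded all 4 residues of this core and 6 did not: IAA20, IAA30, IAA31, IAA32, IAA33 and IAA34. In IAA31 the closest stretch kept the tryptophan and both prolines but not the glycine. The core sequences of IAA1, IAA4, IAA16 and IAA18, which are described further on, are not printed. The coding sequences below are those of 6 other members with the core, followed by IAA31. They are written on the coding strand, 5′ to 3′, with the 5 codons of the core and its next residue in capitals, and with the flanking 3 codons on each side in lower case.
IAA8: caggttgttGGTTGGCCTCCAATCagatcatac
IAA9: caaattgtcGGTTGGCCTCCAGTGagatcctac
IAA12: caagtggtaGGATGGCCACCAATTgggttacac
IAA13: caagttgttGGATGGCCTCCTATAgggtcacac
IAA10: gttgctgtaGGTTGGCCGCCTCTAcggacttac
IAA27: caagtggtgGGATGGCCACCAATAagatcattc
IAA31: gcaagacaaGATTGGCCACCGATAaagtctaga
The capitals begin at codon 185 in IAA8, 186 in IAA9, 72 in IAA12, 79 in IAA13, 96 in IAA10, 146 in IAA27 and 47 in IAA31. The residue after the core was valine in 17 of the 23 genes, isoleucine in 5 (IAA8, IAA11, IAA12, IAA13 and IAA27) and leucine in IAA10. No stretch with 3 of the 4 residues was found in IAA33, so no sequence is shown for it.

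Levels are given as FPKM, fragments scaled to transcript length and to the total mapped, which can be compared between genes. The estimated depth of the libraries spanned a 3.02-fold range, from 0.535 in replicate 1 of the wild-type cross to 1.616 in replicate 2 of the double-mutant cross, relative to replicate 1 of the paternal-mutant cross. One fragment on a transcript of 1500 nt corresponded to between 0.43 and 1.3 FPKM, so members near 1 FPKM rest on few fragments. EIN2, the mutated gene, was at 35.7 and 54.9 FPKM in the wild-type cross, 31.4 and 50.03 in the paternal-mutant cross, 26.2 and 22.2 in the maternal-mutant cross, and 19.7 and 23.7 in the double-mutant cross. Summed over 17 seed coat markers, the level was 797 and 715 FPKM in the wild-type cross and 1744 and 1161 in the double-mutant cross, with 621 to 1128 in the other 4 libraries, and none of the 17 was at 0 in all libraries. Summed over 9 embryo markers it was 142 in replicate 1 of the double-mutant cross and 213 to 251 in the other 7 libraries, and over 11 endosperm markers it was 755 to 1202. In captured tissue, fewer cells of a type and less RNA per cell cannot be told apart.

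A few repressor genes made up most of the Aux/IAA signal. By mean over the 8 libraries, 4 Aux/IAA genes were at 20 FPKM or more (IAA8, IAA9, IAA12 and IAA33), 5 were between 5 and 20 (IAA31, IAA13, IAA10, IAA27 and IAA11), 8 between 1 and 5 (IAA30, IAA18, IAA26, IAA16, IAA4, IAA34, IAA17 and IAA29), 7 above 0 but under 1 (IAA2, IAA1, IAA19, IAA20, IAA7, IAA3 and IAA32), and 5 were listed at 0 in every library (IAA5, IAA6, IAA14, IAA15 and IAA28). IAA14 (SLR) and IAA28 are known from lateral root formation, and IAA3 (SHY2), IAA7 (AXR2) and IAA17 (AXR3), which set auxin responses of shoots and roots, did not exceed 2.88 FPKM in any library. The low end is at the limit of the depth: IAA1, for instance, reached about 2.1 estimated fragments at most.

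IAA8 (AT2G22670) was the most abundant member by level, above 91.4% of all genes with any signal, and alone held 34.0% to 48.3% of the summed Aux/IAA FPKM. It was at 131 and 144 FPKM in the wild-type cross, 129 and 138 in the paternal-mutant cross, 127 and 144 in the maternal-mutant cross, and 96.0 and 126 in the double-mutant cross. The double-mutant cross libraries were both below the wild-type cross libraries, but the log2 change of -0.32 ± 0.16 (SE) was not called (limma adjusted p = 0.53). IAA9, its close relative, whose tomato counterpart is known in fruit and leaf development, was at 56.3 and 65.3, 70.9 and 57.8, 60.8 and 60.7, and 61.5 and 79.7 FPKM in the same order of crosses. The wild-type range overlapped with that of each other cross, and the log2 change with both parents mutant was 0.20 ± 0.18 (limma adjusted p = 0.70).

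IAA12 (BODENLOS), the repressor partner of ARF5 in the embryo, was at 24.4 and 39.0 FPKM in the wild-type cross, 25.3 and 29.5 in the paternal-mutant cross, 36.1 and 40.2 in the maternal-mutant cross, and 18.6 and 35.4 in the double-mutant cross. Its libraries spread widely in the wild-type and double-mutant crosses. The maternal-mutant libraries lay above those of the paternal-mutant and double-mutant crosses, and the wild-type range overlapped with every other cross. ARF5 (MONOPTEROS) itself was at 5.39 and 3.57, 7.34 and 6.47, 7.28 and 6.51, and 3.12 and 7.95 FPKM. Both hybrid crosses were above the wild-type cross, with no call (log2 changes 0.55 ± 0.43 for each).

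By summed level the 9 ARF genes outside the activator class were at 55.8 to 142 FPKM per library and the 5 activators at 19.0 to 24.9. ARF11 led by mean level at 24.2 FPKM, followed by ARF3, ARF17, ARF4 and ARF8, and all 14 ARF genes were above 0 in all 8 libraries, against 11 of the 29 Aux/IAA genes. A longer transcript gives more fragments at the same FPKM, so these counts also depend on length. ARF19, with 4327 nt and a mean of 0.684 FPKM, was above 0 in 8 libraries. IAA30, with 890 nt and a mean of 3.12 FPKM, was above 0 in 6. The 5 activators together held between 12.1% and 25.4% of the summed ARF FPKM. ARF7 and ARF19, the activators of lateral root and tropic responses, were among the lowest, at 1.38 to 3.39 and 0.418 to 0.925 FPKM.

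**Figure D1:**
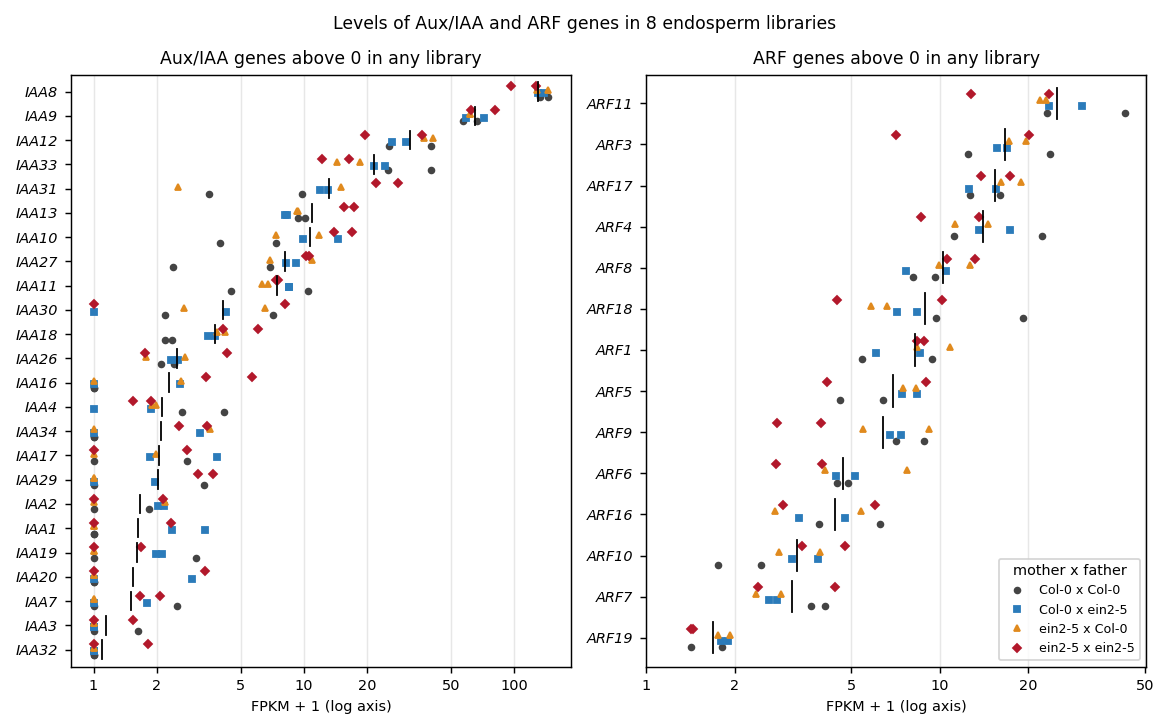
FPKM + 1 on a log axis for the 24 Aux/IAA and 14 ARF genes above 0 in any library, with 1 point per library coloured by cross and a black tick at the mean over the 8 libraries. IAA8 stands to the right of all other members, and most Aux/IAA genes lie near 1, which stands for an FPKM of 0.

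ARF3 (ETTIN), a repressor that can also sense auxin directly in the gynoecium, was at 11.5 and 22.7 FPKM in the wild-type cross, 14.7 and 16.0 in the paternal-mutant cross, 16.3 and 18.7 in the maternal-mutant cross, and 6.12 and 19.1 in the double-mutant cross. Its relative ARF4 was at 10.2 and 21.3, 12.6 and 16.4, 10.3 and 13.6, and 7.65 and 12.6 FPKM. For both, the lowest value was in replicate 1 of the double-mutant cross and the highest in replicate 2 of the wild-type cross, so that these ranges overlapped. ARF17, one of the ARF genes held down by microRNA miR160, was at 11.7 and 15.1, 11.6 and 14.6, 17.9 and 15.1, and 12.8 and 16.3 FPKM, with no call in any comparison. ARF8, an activator targeted by miR167 and known from fruit set, was at 7.08 and 8.61, 9.48 and 6.68, 11.7 and 8.92, and 12.2 and 9.58 FPKM. All 4 libraries with a mutant mother exceeded both wild-type cross libraries, while the paternal-mutant cross overlapped with both (maternal effect 0.37 ± 0.22, limma adjusted p = 0.74).

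Differences between crosses were tested with limma on log2(FPKM + 1), with genes of at least 1 FPKM in at least 2 libraries and Benjamini-Hochberg adjustment over all 19719 tested genes. Of the members, 22 Aux/IAA and 13 ARF genes passed this filter, and IAA3, IAA5, IAA6, IAA14, IAA15, IAA28, IAA32 and ARF19 did not. No member was called in any of the 7 comparisons at an adjusted p under 0.05. Of the 245 tests, 21 had an unadjusted p under 0.05, and these involved 11 genes, whose values follow as descriptions. The 7 comparisons share libraries, so these tests are not separate results. The share of all genes at that p is given with each comparison below.

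With both parents mutant, several Aux/IAA repressors were higher than with both parents wild type, while IAA33 and ARF9 were lower. In the double-mutant cross against the wild-type cross, 6 of 22 Aux/IAA genes were higher at an unadjusted p under 0.05 (IAA10, IAA13, IAA16, IAA18, IAA27 and IAA31), where 8.44% of all tested genes were, and 1 was lower (IAA33), where 2.13% were. None of the 13 ARF genes was higher at that p, and 1 (ARF9) was lower. At an adjusted p under 0.05, 0 members were called by limma and 0.0101% of all genes were, with adjusted p-values of the members from 0.33. The change was above 0 in 15 of 22 Aux/IAA and 5 of 13 ARF genes, against 61.6% of all genes. Both mutant libraries were above both wild-type libraries in 7 Aux/IAA and 2 ARF genes, against 27.4% of all genes, and below in 3 and 2, against 10.4%. The median log2 change was 0.26 over the Aux/IAA genes, -0.24 over the ARF genes and 0.12 over all tested genes. Median-ratio scaling brought the median of all genes to 0.02, with 0.19 for Aux/IAA and -0.33 for ARF genes. Quantile normalization brought it to -0.03, with 0.08 for Aux/IAA and -0.52 for ARF genes, so the size of these medians depended on the scaling.

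IAA10 (AT1G04100) was at 3.01 and 6.35 FPKM in the wild-type cross, 8.85 and 13.5 in the paternal-mutant cross, 10.8 and 6.35 in the maternal-mutant cross, and 15.9 and 12.9 in the double-mutant cross. All 6 libraries with a mutant parent lay above both wild-type libraries, replicate 2 of the maternal-mutant cross only narrowly. The lowest library, replicate 1 of the wild-type cross, held about 1.9 estimated fragments. The log2 change with both parents mutant was 1.502 ± 0.41 (unadjusted p = 0.0069, limma adjusted p = 0.34), and that with a mutant father alone 1.14 ± 0.41 (unadjusted p = 0.025, limma adjusted p = 1.0). IAA11, its nearest relative, was at 3.52 to 9.42 FPKM with the extremes both in the wild-type cross.

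IAA13 (AT2G33310), the close relative of IAA12, had its highest levels in the double-mutant cross. It was at 9.11 and 8.37 FPKM in the wild-type cross, 7.31 and 7.15 in the paternal-mutant cross, 8.35 and 8.27 in the maternal-mutant cross, and 14.5 and 16.3 in the double-mutant cross, so that the last 2 libraries stood apart from the other 6. The log2 change against the wild-type cross was 0.75 ± 0.25 (unadjusted p = 0.019, limma adjusted p = 0.41). The interaction, the paternal effect under a mutant mother less the paternal effect under a wild-type one, was 1.05 ± 0.36 (unadjusted p = 0.019, limma adjusted p = 0.9997), and it was the only interaction among the 35 tested members at an unadjusted p under 0.05. At that p 2.04% of all genes had an interaction above 0 and 1.32% below 0, and limma called 0 members and 0% of all genes. The interaction was above 0 in 12 of 22 Aux/IAA and 4 of 13 ARF genes, against 51.7% of all genes.

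IAA31 (AT3G17600), which lacks the glycine of the degron core and whose protein is known to be degraded slowly, was at 2.54 and 8.78 FPKM in the wild-type cross, 10.9 and 11.97 in the paternal-mutant cross, 14.0 and 1.53 in the maternal-mutant cross, and 26.9 and 21.0 in the double-mutant cross. Both double-mutant cross libraries exceeded the other 6, and the maternal-mutant cross libraries were far apart. The log2 change with both parents mutant was 2.08 ± 0.80 (unadjusted p = 0.032, limma adjusted p = 0.44). IAA27, also known as the phytochrome-associated protein PAP2, was at 1.39 and 5.87, 8.19 and 7.21, 9.95 and 5.88, and 9.58 and 9.21 FPKM. All 6 libraries of a mutant parent were above both wild-type cross libraries, replicate 2 of the maternal-mutant cross (5.88 against 5.87) only narrowly. With both parents mutant the log2 change was 1.36 ± 0.51 (unadjusted p = 0.030, limma adjusted p = 0.43). The lowest library of each gene held about 1 estimated fragment.

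IAA18, known from embryo apical patterning, was at 1.18 and 1.35 FPKM in the wild-type cross, 2.52 and 2.77 in the paternal-mutant cross, 3.24 and 2.84 in the maternal-mutant cross, and 3.12 and 5.06 in the double-mutant cross. Both wild-type libraries lay below the other 6, and the log2 change with both parents mutant was 1.14 ± 0.39 (unadjusted p = 0.020, limma adjusted p = 0.41). The lowest library of IAA18, replicate 1 of the wild-type cross, held only about 1.1 estimated fragments. IAA16 was listed at 0 in both wild-type cross libraries and at 4.67 and 2.43 FPKM in the double-mutant cross (unadjusted p = 0.013), with 1.57 and 0 in the paternal-mutant cross and 1.61 and 0 in the maternal-mutant cross. It held at most about 9.75 estimated fragments in a library. Of the 17 seed coat markers tested in the same comparison, 16 were higher than in the wild-type cross (median log2 change 1.04), 13 of them at an unadjusted p under 0.05. Of the 9 endosperm markers tested, 7 were higher (median log2 change 0.74), and 5 of these, FWA, MEA, FIS2, PHE1 and AGL62, were higher at that p without overlap. HDG3 (0.17) and SUC5 (0.13) were higher with overlap, and ZOU (-0.21) and EDE1 (-0.24) were lower. Of all tested genes, 61.6% were higher, 8.44% were higher at that p, and 27.4% were higher without overlap. The part of either marker list in the Aux/IAA differences was not tested.

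**Figure D2:**
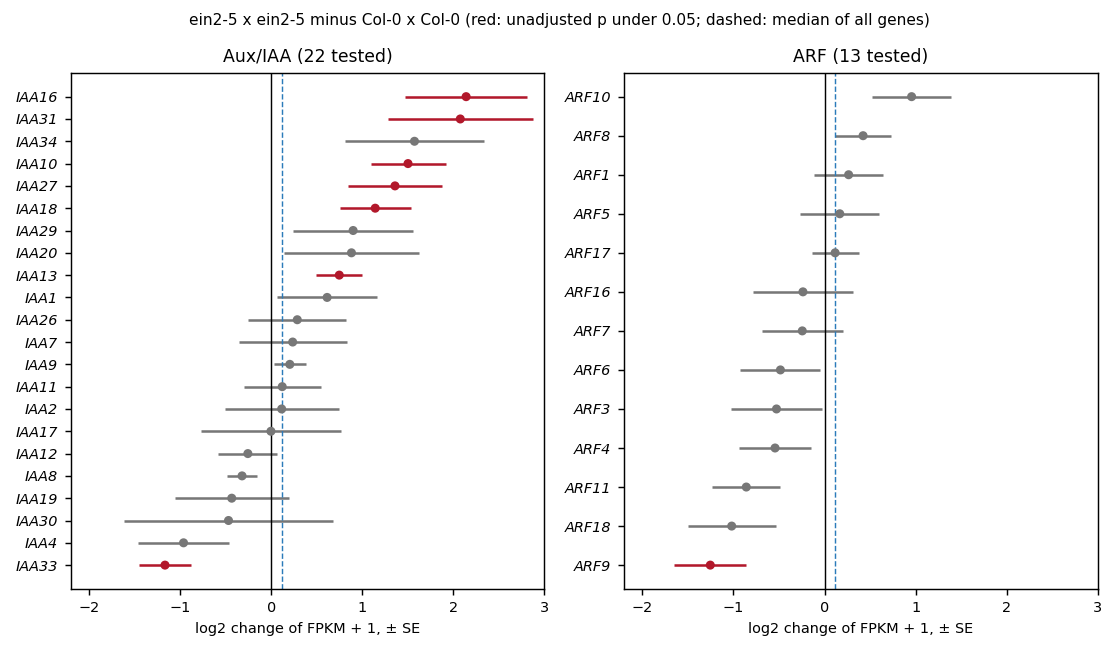
Log2 change of FPKM + 1 with its SE in the double-mutant cross against the wild-type cross for the 22 Aux/IAA and 13 ARF genes tested, in red where the unadjusted p was under 0.05, with the median of all genes dashed at 0.12. IAA16 and IAA31 lie farthest right and ARF9 and IAA33 farthest left.

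IAA33 (AT5G57420) was lower with a mutant mother, short of the adjusted threshold. This gene, whose product has no degron core and in roots is known to be stabilised by auxin rather than destroyed, was at 24.2 and 39.0 FPKM in the wild-type cross, 23.3 and 20.5 in the paternal-mutant cross, 13.3 and 17.5 in the maternal-mutant cross, and 15.4 and 11.2 in the double-mutant cross. All 4 libraries with a mutant mother were below all 4 with a wild-type mother, as in 1.19% of all genes. By the averaged maternal effect IAA33 was the 1 member lower at an unadjusted p under 0.05, against 2.08% of all genes. With 35 members tested, these counts are near the background. The paternal-mutant cross libraries were also both below both wild-type cross libraries, as in 9.22% of all genes (-0.47 ± 0.29, limma unadjusted p = 0.14). The maternal effect, averaged over both fathers, was -0.83 ± 0.20 on the log2 scale (unadjusted p = 0.0040, limma adjusted p = 0.69), the difference of the maternal-mutant cross from the wild-type cross was -0.96 ± 0.29 (unadjusted p = 0.011), and that of the double-mutant cross was -1.17 ± 0.29 (unadjusted p = 0.0041, limma adjusted p = 0.33). Estimated fragments for this short transcript of 759 nt ran from about 7.1 to 29.9 per library. Its share of the summed Aux/IAA FPKM was 8.92% and 11.6% in the wild-type cross and 5.44% and 3.23% in the double-mutant cross.

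ARF9, ARF11 and ARF18, repressor-class relatives grouped here after their values were seen, were each lowest in replicate 1 of the double-mutant cross. The tomato counterpart of ARF9 (AT4G23980) restricts cell division in young fruit. ARF9 was at 6.08 and 7.84 FPKM in the wild-type cross, 5.79 and 6.37 in the paternal-mutant cross, 8.18 and 4.49 in the maternal-mutant cross, and 1.79 and 2.94 in the double-mutant cross. The double-mutant cross libraries were below the other 6 (-1.25 ± 0.39 against the wild-type cross, unadjusted p = 0.014, limma adjusted p = 0.39). ARF11 (AT2G46530) was at 22.2 and 41.7, 22.5 and 29.6, 21.0 and 22.1, and 11.8 and 22.6 FPKM, and only its maternal-mutant cross libraries were both below both wild-type cross libraries. With both parents mutant its log2 change was -0.86 ± 0.37 (unadjusted p = 0.051, limma adjusted p = 0.47).

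ARF18 was at 8.73 and 18.2 FPKM in the wild-type cross, 7.40 and 6.17 in the paternal-mutant cross, 5.61 and 4.84 in the maternal-mutant cross, and 3.47 and 9.16 in the double-mutant cross. Both hybrid crosses were below the wild-type cross without overlap, and the change in the maternal-mutant cross was -1.14 ± 0.48 (unadjusted p = 0.048, limma adjusted p = 0.9962). Together the 3 genes held 37.8% and 41.9% of the summed ARF FPKM in the wild-type cross and 22.8% and 28.2% in the double-mutant cross, with 26.9% to 35.4% in the hybrids. The embryo marker sum was lowest in replicate 1 of the double-mutant cross, the library where ARF3, ARF4, ARF5, ARF6, ARF9, ARF11 and ARF18 were also lowest. That sum was carried mainly by PDF1 and CUC1, at 62.9 and 35.1 FPKM there, whereas the embryo marker ATML1 was at its highest of the 8 libraries there, at 32.3 FPKM. With both parents mutant, 4 of the 8 embryo markers tested were higher and 4 lower, with ATML1 alone at an unadjusted p under 0.05 (1.36 ± 0.29, unadjusted p = 0.0016, limma adjusted p = 0.32). The part of the embryo markers in the ARF values was not tested.

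**Figure D3:**
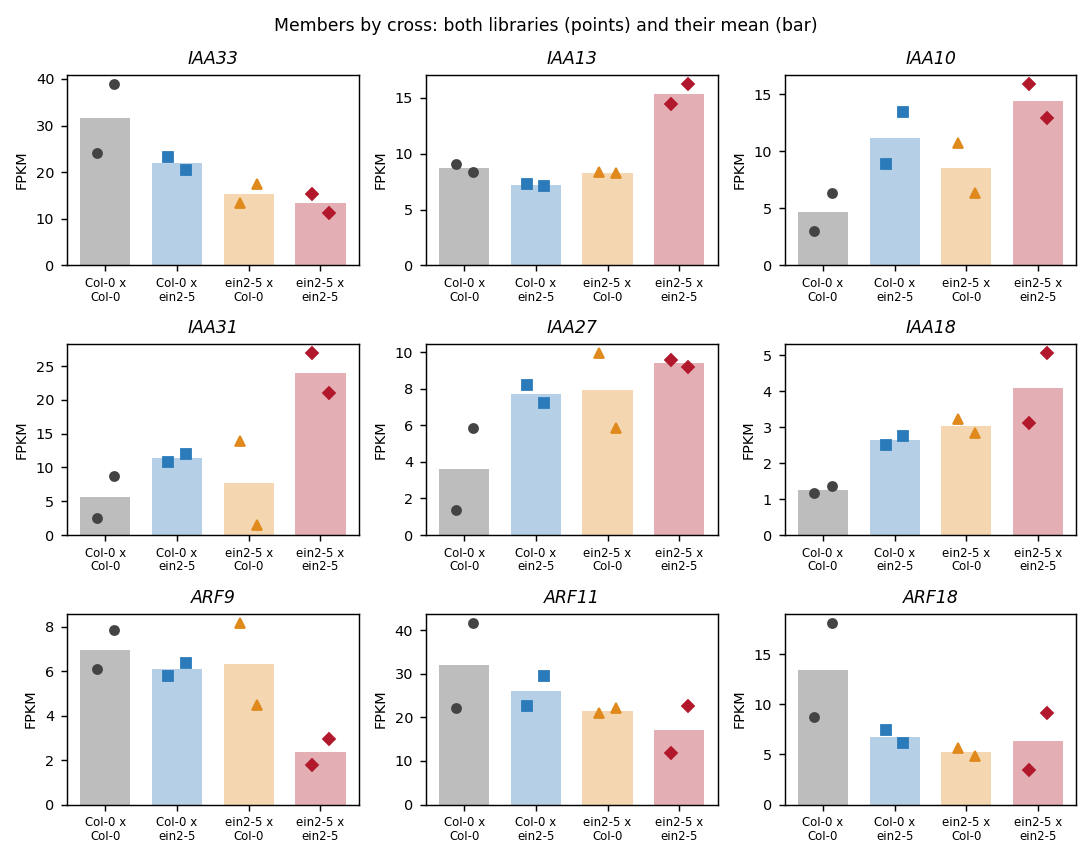
FPKM of 9 members by cross, with a point for each of the 2 libraries and a bar at their mean. IAA33 is lowest in both crosses with a mutant mother, with the paternal-mutant cross between them and the wild-type cross. IAA13 is high in the double-mutant cross alone, and ARF9 is low there.

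With 1 mutant parent, IAA33 and ARF18 were lower in the maternal-mutant cross, and IAA10 and IAA1 higher and IAA4 lower in the paternal-mutant cross, none of them past adjustment. In the maternal-mutant cross against the wild-type cross, 0 of 35 members were higher at an unadjusted p under 0.05, against 2.56% of all genes, and 2 were lower, IAA33 and ARF18, against 1.44%. The change was above 0 in 10 of 22 Aux/IAA and 7 of 13 ARF genes, against 53.5% of all genes, with libraries all higher in 7 members, against 15%, and all lower in 6, against 12.5%. In the paternal-mutant cross against the wild-type cross, IAA1 and IAA10 were higher, against 2.18% of all genes, and IAA4 was lower, against 0.74%. The change was above 0 in 14 of 22 and 5 of 13 genes, against 58.2%, with libraries all higher in 8 members, against 16.8%, and all lower in 5, against 9.22%. IAA1 was listed at 0 in both wild-type cross and both maternal-mutant cross libraries and at 1.36 and 2.39 FPKM in the paternal-mutant cross, with 1.34 and 0 in the double-mutant cross. IAA4 was at 1.64 and 3.15 FPKM in the wild-type cross, 0.878 and 0 in the paternal-mutant cross, 0.903 and 0.991 in the maternal-mutant cross, and 0.870 and 0.543 in the double-mutant cross, which is at most about 5.56 estimated fragments. Both comparisons, and that of both mutant parents, share the wild-type cross libraries. Between the hybrid crosses, IAA1 was lower in the maternal-mutant cross at an unadjusted p under 0.05, against 1.89% of all genes, and 0 members were higher, against 1.13%. There the change was above 0 in 8 of 22 and 6 of 13 genes, against 46%, with libraries all higher in 6 members, against 16.1%, and all lower in 6, against 19.4%. Limma called 0 members in these 3 comparisons, in which 0% of all genes were called.

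Effects of each parent were also averaged over the other parent. For the mother, IAA13 (0.46 ± 0.18) and IAA18 (0.64 ± 0.28) were higher at an unadjusted p under 0.05, against 5.01% of all genes, and IAA33 was lower, against 2.08%. Out of 35 tested members, these counts are near the background. For the father, IAA1, IAA10 (0.93 ± 0.29) and IAA31 (1.54 ± 0.56) were higher, against 5.05% of all genes, and 0 were lower, against 1.03%. The paternal effect was above 0 in 17 of 22 Aux/IAA genes and in 3 of 13 ARF genes, where it was above 0 in 62.6% of all tested genes, with medians of 0.32, -0.10 and 0.08. The maternal effect was above 0 in 13 of 22 and 5 of 13, where it was above 0 in 56.7% of all genes. The difference between the maternal and the paternal effect of a gene was not tested. In libraries split by mother, IAA33 (lower) and IAA18 (higher) were the 2 members without overlap between the 4 and 4 libraries, where 1.19% and 2.26% of all genes had no overlap in those directions. Out of 35 tested members, that too is near the background. Split by father, 0 members were higher without overlap, against 2.66% of all genes, and IAA4 was lower, against 0.72%. Limma called 0 members for either parent, and 0% of all genes.

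**Figure D4:**
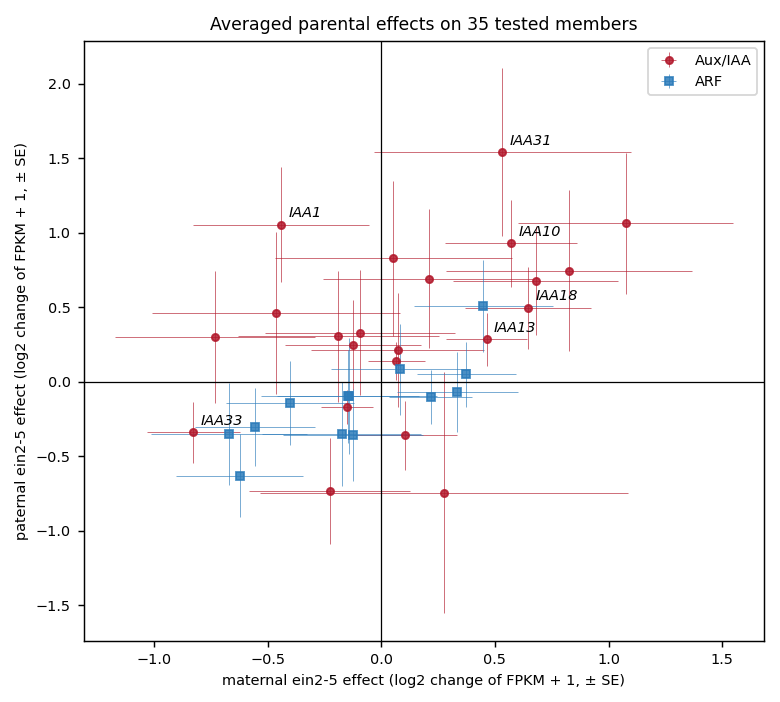
Averaged maternal (x axis) and paternal (y axis) ein2-5 effects on the log2 scale with their SE for 22 Aux/IAA and 13 ARF genes. The members at an unadjusted p under 0.05 in either effect are named, with IAA33 at the left and IAA31 at the top.

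Summed over its members, neither family separated the double-mutant from the wild-type cross. The Aux/IAA sum was between 271 and 348 FPKM per library and the ARF sum between 74.8 and 161, with overlapping ranges in the wild-type and double-mutant crosses. Genes with the degron core summed to 238 to 304 FPKM and those without it to 24.6 to 48.9. IAA33 and IAA31 were the members without the core at a mean of 10 FPKM or more. The share of genes without the core was 12.1% and 14.5% of the Aux/IAA sum in the wild-type cross and 15.9% and 12.7% in the double-mutant cross, which overlap. It was 12.7% and 11.3% in the paternal-mutant cross and 10.5% and 8.19% in the maternal-mutant cross, whose libraries were below the other 6. The sum of the activating ARF genes was 24.9 and 24.3 FPKM in the maternal-mutant cross, above the 19.4 and 19.5 of the wild-type cross, and 19.0 and 24.3 in the double-mutant cross.

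**Figure D5:**
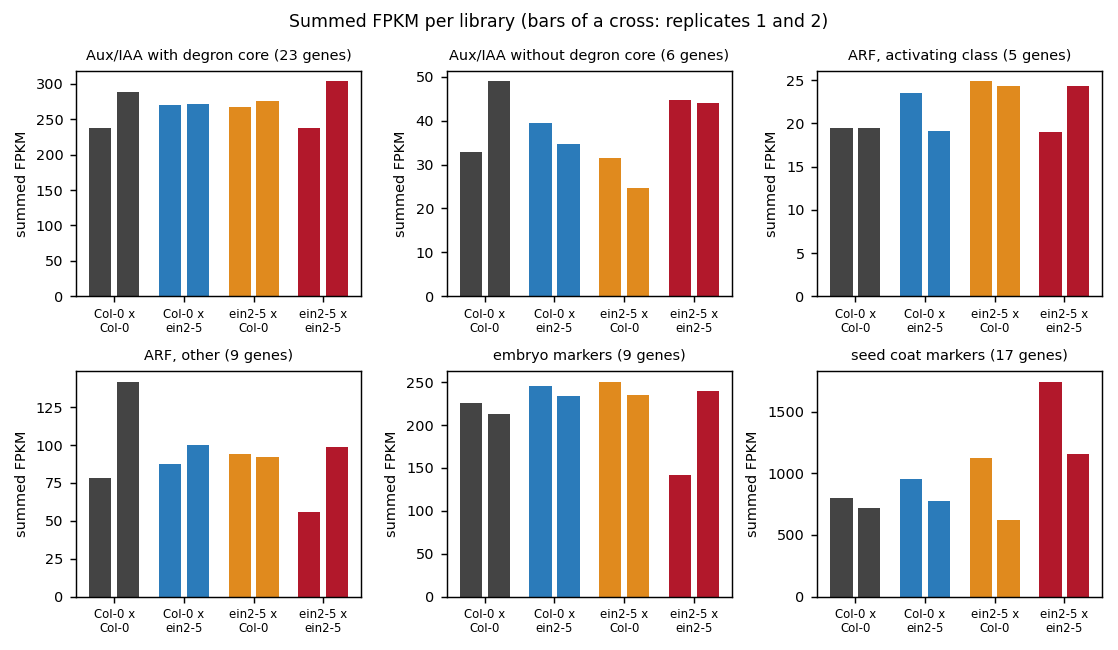
Summed FPKM per library of Aux/IAA genes with and without the degron core, activating and other ARF genes, and embryo and seed coat markers. Each cross has 2 bars, replicates 1 and 2. The sums of all 4 classes overlap between the double-mutant and wild-type crosses, those without the core are lowest in the maternal-mutant cross, and the embryo marker sum is lowest in replicate 1 of the double-mutant cross.

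Auxin response elements, the sites that ARF proteins bind, were searched in the 250 bases before each gene's start in the TAIR10.1 annotation, on both strands. TGTCTC was found in 9 of 29 Aux/IAA promoters (31.0%) and 1 of 14 ARF promoters (7.14%), against 10.9% of 27977 promoters. TGTCGG was found in 6 of 29 Aux/IAA promoters (20.7%), among them those of IAA13, IAA16 and IAA27, and in 2 of 14 ARF promoters (14.3%), against 4.19%. The windows of IAA10, IAA18, IAA31 and IAA33 held neither word. A match is a description of the letters, not a bound site.

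In the rest of the pathway, 2 genes outside the member list had an unadjusted p under 0.05 with both parents mutant, AXR1 and GH3.4. Both were higher, as 8.44% of all tested genes were at that p, with 2.13% lower, so these counts are near the background. Of the 6 receptors, 0 had an unadjusted p under 0.05 with both parents mutant or by maternal effect. TIR1, the most abundant receptor, was at 43.04 and 45.9 FPKM in the wild-type cross, 42.6 and 41.9 in the paternal-mutant cross, 38.5 and 33.5 in the maternal-mutant cross, and 32.1 and 40.1 in the double-mutant cross. Its 4 libraries with a mutant mother were all below the 4 with a wild-type mother, as in 1.19% of all genes, by a maternal effect of -0.26 ± 0.12 (unadjusted p = 0.055, limma adjusted p = 0.715). Of the 5 TOPLESS co-repressors, 0 passed that p, and TPR3, the most abundant, ranged from 60.4 to 81.6 FPKM. Of the 7 genes of the SCF ubiquitin ligase and its RUB modification, AXR1, an activating enzyme of that modification, was higher at an unadjusted p under 0.05 (0.36 ± 0.13 with both parents mutant, limma adjusted p = 0.42), at 45.7 and 47.0 FPKM in the wild-type cross and 56.7 and 63.3 in the double-mutant cross. ASK1, the most abundant of them, ranged from 402 to 731 FPKM.

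Among auxin-induced genes, 5 of 7 GH3 genes, which conjugate auxin to amino acids, passed the filter and 5 of 5 were above 0 in the change with both parents mutant, with 1, GH3.4, higher at an unadjusted p under 0.05, where 61.6% and 8.44% of all tested genes were. GH3.4 was at 1.97 and 1.89 FPKM in the wild-type cross and at 5.74 and 6.20 in the double-mutant cross (1.25 ± 0.43, limma adjusted p = 0.41). GH3.2, the most abundant, ranged from 1.72 to 12.3 FPKM with its extremes both in the double-mutant cross. LBD18, the most abundant of 3 LBD targets of ARF7 and ARF19, ranged from 27.5 to 70.6 FPKM and neither of the tested LBD genes, LBD16 and LBD18, had an unadjusted p under 0.05 with both parents mutant or by maternal effect. Of the 8 ARF genes clustered on chromosome 1 (ARF12 to ARF15 and ARF20 to ARF23), 5 were listed at 0 in every library and the sum of all 8 did not exceed 1.04 FPKM.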

How the data were processed

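The authors deposited FPKM values per gene for 8 libraries, and 0 columns were left unused. TopHat2 2.1.1, SAMtools 1.5, Cufflinks 2.2.1 and TAIR10 are named in the submitters' processing notes, and their options are not given in the sources used here. Column totals were 965922 to 1068714. No strand setting is given, so reads of overlapping antisense genes cannot be told apart, and close paralogs could share reads. Names and lengths came from RefSeq TAIR10.1 (43 of 43 members matched), used without coordinates. Depth was estimated from ratios of low values of the same gene between libraries, in genes with a single annotated transcript. After this, 98.3% of 2671 low values lay within 0.06 of a whole multiple of the gene's lowest depth-scaled value (12% by chance). The depths were fitted to ratios of the same low values, so that share was partly fixed in advance. Fragments per gene use a length correction of 300 nt and cover counting error only.

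Group means were fitted to log2(FPKM + 1) with R 4.3.3 and limma 3.58.1 (eBayes with a variance trend, two-sided, 8 libraries sharing the spread, 4 residual degrees of freedom plus 3.725 from moderation), after a test on simulated data. Fold changes are understated near the pseudocount of 1. The members and lists were chosen with earlier results of these data known. Named were the 6 Aux/IAA and 5 ARF genes of highest mean, every member at an unadjusted p under 0.05, and from each pathway list the most abundant gene and any at that p. ARF5 and IAA11 were added after their values were seen. Alternatives changed the pseudocount, filter, scaling, variance trend, samples fitted, replicate block and, added after seeing the data, a depth covariate.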

Additional observations from a re-analysis of the deposited data

Results flagged for a closer look

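IAA13 was singled out because its libraries moved in opposite directions in 2 settings of the same contrast. With a wild-type mother, both libraries of a mutant father (7.31 and 7.15 FPKM) lay below both wild-type cross libraries (9.11 and 8.37), whereas with a mutant mother both libraries of a mutant father (14.5 and 16.3) lay above both maternal-mutant cross libraries (8.35 and 8.27). The first of these shifts was -0.24 ± 0.25 on the log2 scale (limma unadjusted p = 0.37). With the parents exchanged, the pattern held only narrowly. With a wild-type father, the maternal-mutant cross libraries (8.35 and 8.27) lay just below those of the wild-type cross (-0.06 ± 0.25, limma unadjusted p = 0.81). With a mutant father, the double-mutant cross libraries lay above those of the paternal-mutant cross. The share of all genes with such a pattern was not counted. The interaction was 1.05 on the log2 scale (unadjusted p = 0.019, limma adjusted p = 0.9997), so the difference did not pass adjustment over all genes.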

How the results depend on the processing

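No member was called at an adjusted p under 0.05 in any alternative setting (18 settings). All 362 recomputed log2 changes of the 21 member results at an unadjusted p under 0.05 kept their sign. These results were picked at that p in the same libraries, so keeping the sign was largely fixed in advance. Settings in which a filter dropped the member were skipped. The maternal effect of IAA33 ran from -0.99 to -0.66 over 17 settings. The change of IAA10 with both parents mutant ran from 1.065 to 1.94 over 18. The maternal effect of IAA18 ran from 0.50 to 0.78 over 16 settings, and the change of ARF18 in the maternal-mutant cross from -1.63 to -0.65 over 18. Neither this maternal effect of IAA18 nor this change of ARF18 stayed under an unadjusted p of 0.05 in most settings. The change of IAA18 with both parents mutant did so in most settings.

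Over all genes, the 2 calls of the double-mutant cross against the wild-type cross became 0 with a pseudocount of 0.5, a filter of 5 FPKM or a depth covariate, 4 with median-ratio scaling, 11 without a variance trend and 1 with only the crosses compared. Without a variance trend, 0 became 3 for the maternal-mutant cross and 1 for the paternal-mutant cross against the wild-type cross, 4 between the hybrids and 1 for the maternal effect. With a depth covariate it became 2 for the maternal-mutant cross and 1 between the hybrids. Leaving out 1 library gave 0 to 32 calls with both parents mutant (32 without replicate 2 of the wild-type cross), 0 to 11 for the maternal-mutant cross, 0 to 15 for the paternal-mutant cross, 0 to 5 between the hybrids, 0 to 12 for the maternal effect, 0 to 10 for the paternal effect and 0 to 3 for the interaction. The causes were not tested. The labels do not say whether libraries of the same replicate number were handled together. Deviations of same-numbered libraries correlated weakly between crosses, at 0.00866 to 0.136, and the replicate block took the 2 calls to 0. Leaving out a library assumes that the lone library left in its cross varies like the others. Members at 0 in any library held at most about 9.75 estimated fragments in the rest.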

Other observations

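Ratios between members were chosen after the values were seen and are given without a test. The ratio of IAA13 to IAA12 in FPKM was 0.777 and 0.459 in the double-mutant cross and 0.206 to 0.373 in the other 6 libraries. The ratio of IAA31 to IAA33, the most abundant members without the degron core, was 1.75 and 1.88 in the double-mutant cross, 0.105 and 0.225 in the wild-type cross, 0.467 and 0.584 in the paternal-mutant cross, and 1.05 and 0.0876 in the maternal-mutant cross. The ratio of IAA10 to IAA11 was 0.855 and 0.674 in the wild-type cross and 1.18 to 2.45 in the other 6 libraries.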
